A study of Glycine max with 12 samples.

Results

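The laccase and secondary wall genes of soybean leaf were described in 12 RNA sequencing libraries of stressed plants. A gene was a member if its deposited description, in any case of letters, contained laccase, fasciclin-like arabinogalactan, COBRA-like protein 4, irregular xylem or IRX, xylem cysteine, or the catalytic subunit 4, 7 or 8 of cellulose synthase A. This rule found 149 of 46446 genes: 46 laccases, 57 fasciclin-like arabinogalactan proteins (FLA), 26 IRX genes, 5 CESA4, 7 CESA7, 4 CESA8 and 4 COBRA-like 4 genes, and 0 genes with xylem cysteine in the description. All plants were wild type of the cultivar HN95, grew in pots and received 3 L of a salt solution with 320 mM each of NaHCO3 and Na2SO4 and 40 mM each of NaCl and Na2CO3. The control group had no spray treatment named in its labels, and no source says whether it was given a water spray. The other groups were sprayed on the leaf with nano-SiO2 (silica nanoparticles, 200 mg/L), with melatonin (MT, an indoleamine that plants also make, 300 µM), or with both at these doses, and leaves were taken after 7 days. Each of the 4 groups had 3 libraries, which are called by group and replicate number, and values of a group are always given in the order of replicates 1, 2 and 3. The labels call them biological replicates without naming separate plants or pots, so the spread behind each p-value is that between samples and may be technical in part. Unstressed plants were not analysed here, so no value shows an effect of the salt.

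Secondary walls are laid down inside the primary wall of water-conducting xylem vessels and fibres once these cells stop expanding. Their cellulose is spun by complexes of CESA4, CESA7 and CESA8, their xylan is built by IRX glycosyltransferases, and laccases, which are copper oxidases of the cell wall, couple monolignols into lignin there. COBRA-like and fasciclin-like arabinogalactan proteins sit at the cell surface, and members of both families are needed in Arabidopsis for normal cellulose in these walls. In a leaf this programme runs mainly in the veins, beside a large mass of mesophyll.

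The deposited unit was FPKM, fragments scaled by the length of the transcript and the size of the library, so that levels of different genes can be compared per length. Summed FPKM per library lay between 522120 and 559092, between 25557 and 27660 genes reached 1 FPKM, and libraries of 1 group correlated at 0.958 to 0.992 over genes. Leaf identity was checked on the 31 genes for RuBisCO small chains and chlorophyll a-b binding proteins, whose summed level was 46498 to 74762 FPKM in control, 27587 to 46184 with nano-SiO2, 43838 to 62688 with MT and 48569.9 to 66878 with both sprays. Log2 changes are differences of mean log2(FPKM + 1), which understates the change of genes at low FPKM. They come from 1 limma fit to all 12 libraries, and calls required an adjusted p under 0.05, by the Benjamini-Hochberg method over the 28260 genes that reached 1 FPKM in at least 3 libraries.

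Of the 149 members, 75 passed this filter and were tested: 18 laccases, 29 FLA, 20 IRX, 1 CESA4, 4 CESA7, 2 CESA8 and 1 COBRA-like 4. None passed it through 1 group alone (0 members), 42 reached 1 FPKM in all 12 libraries, and 14 did not reach it in any MT library. The 74 members that were not tested stayed at or under 3.23 FPKM, 48 of them never reached 1 FPKM, and 2 were listed at 0 in every library. They included 28 laccases, among them every laccase-3, laccase-5 and laccase-15, and 28 FLA, among them FLA19, FLA20 and FLA21. Together the untested members held 3.81% (median over libraries) of the summed FPKM of all members. In the annotation of the authors' deposited table, 76 of the 149 members carried the term for secondary cell wall biogenesis, against 125 of 46446 genes. None of the laccases carried it (0 of 46), while all 46 carried copper ion binding. The term for lignin biosynthesis was carried by 32 of the 46 laccases, against 135 of 46446 genes. The members lie on 20 chromosomes, and 54 of them stand in 18 runs of neighbours in the gene order. The longest runs are 10 FLA genes on chromosome 12 and 7 FLA genes on chromosome 11. The sources used here do not say how reads were divided between close copies, so values of neighbours are uncertain to that extent.

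Summed transcripts of the secondary wall set were lower in MT leaves than in control leaves in all 7 classes. Summed over the 149 members, levels were 417, 515 and 556 FPKM in control, 473, 596 and 826 with nano-SiO2, 201, 263 and 229 with MT, and 235, 400 and 421 with both sprays. All MT libraries thus lay below all control libraries, nano-SiO2 3 lay above every other library, combined spray 1 lay within the MT range, combined spray 2 lay between the MT and the control libraries, and combined spray 3 was just above control 1, the lowest control library. Of the 75 tested members, 21 were called lower with MT than in control, where 1.69% of all tested genes were called lower, and 0 were called higher. These calls were 12 FLA, 6 laccases and 3 IRX genes, with 0 in CESA4, CESA7, CESA8 and COBRA-like 4. The member median was -0.80 on the log2 scale beside -0.05 for all tested genes, and 69 of 75 lay below 0, as did 16742 of 28260 tested genes. The 1.69% called lower and this count below 0 are the background for each class and list in that comparison. In the F test over the 4 groups 27 members were called, against 4.12% of tested genes. All 3 MT libraries were below all 3 control libraries for 56 members, against 14% of tested genes. In bulk leaf, fewer of the cells that hold these transcripts and less RNA per such cell cannot be told apart. Which cell types held them was not measured.

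**Figure D1:**
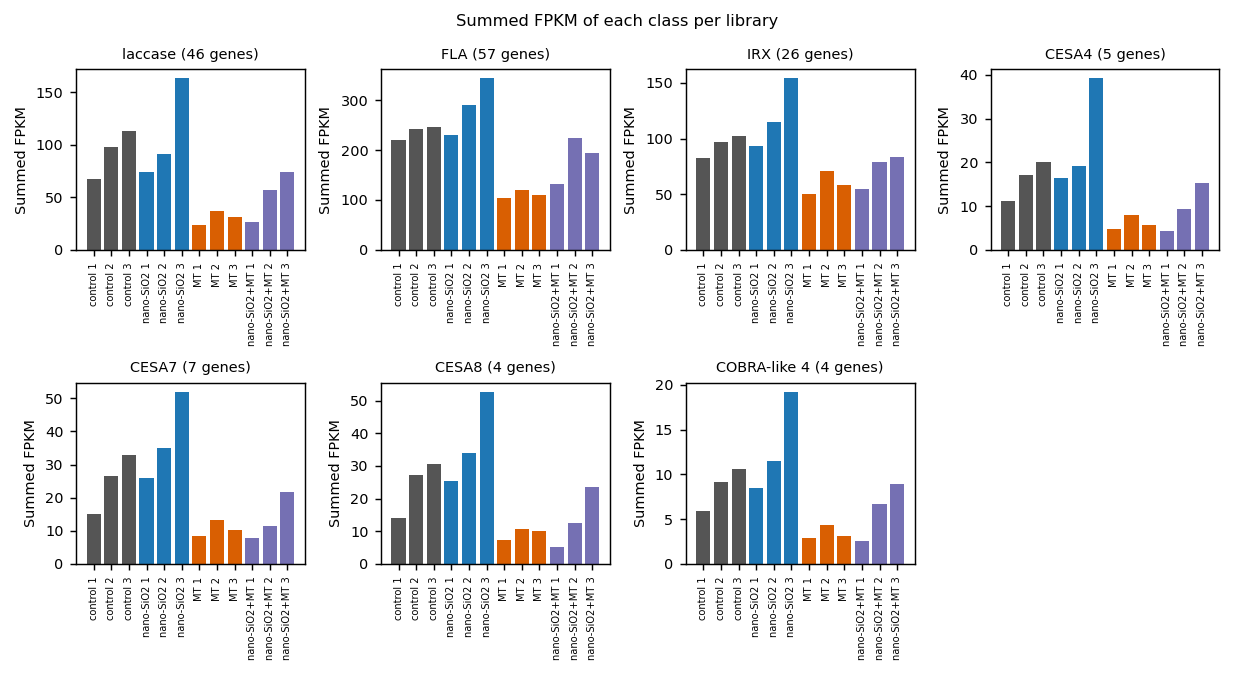
Summed FPKM of each class (bars, 1 per library, linear axis from 0; colours mark the 4 groups). In every class the MT libraries lie below all control libraries, combined spray 1 is within or near the MT range, and nano-SiO2 3 is the highest library.

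The sums of single classes had the same order of groups. Laccases summed to 67.9, 97.6 and 113 FPKM in control, 73.7, 90.9 and 164 with nano-SiO2, 23.2, 36.5 and 31.1 with MT and 26.8, 56.9 and 74.3 with both sprays. The sums of the FLA class were 221, 242 and 246 FPKM in control, 231, 291 and 344 with nano-SiO2, 104.8, 119 and 110.4 with MT and 133, 224 and 193 with both sprays. For IRX genes the sums were 82.4, 96.7 and 102.7, then 92.8, 115 and 154, 49.95, 71.2 and 58.1 and 55.1, 78.996 and 83.6 FPKM in the same order. MT lay below control without overlap in these 3 classes, and nano-SiO2 overlapped control in each through its lower libraries. The 3 sums of CESA4, CESA7 and CESA8 in control were 11.1, 17.02 and 20.1, 14.9, 26.5 and 32.8, and 14.02, 27.1 and 30.7 FPKM, against 4.71, 7.97 and 5.78, 8.397, 13.1 and 10.1, and 7.21, 10.6 and 10.1 FPKM with MT. Control 1 was the lowest control library in every class.

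**Figure D2:**
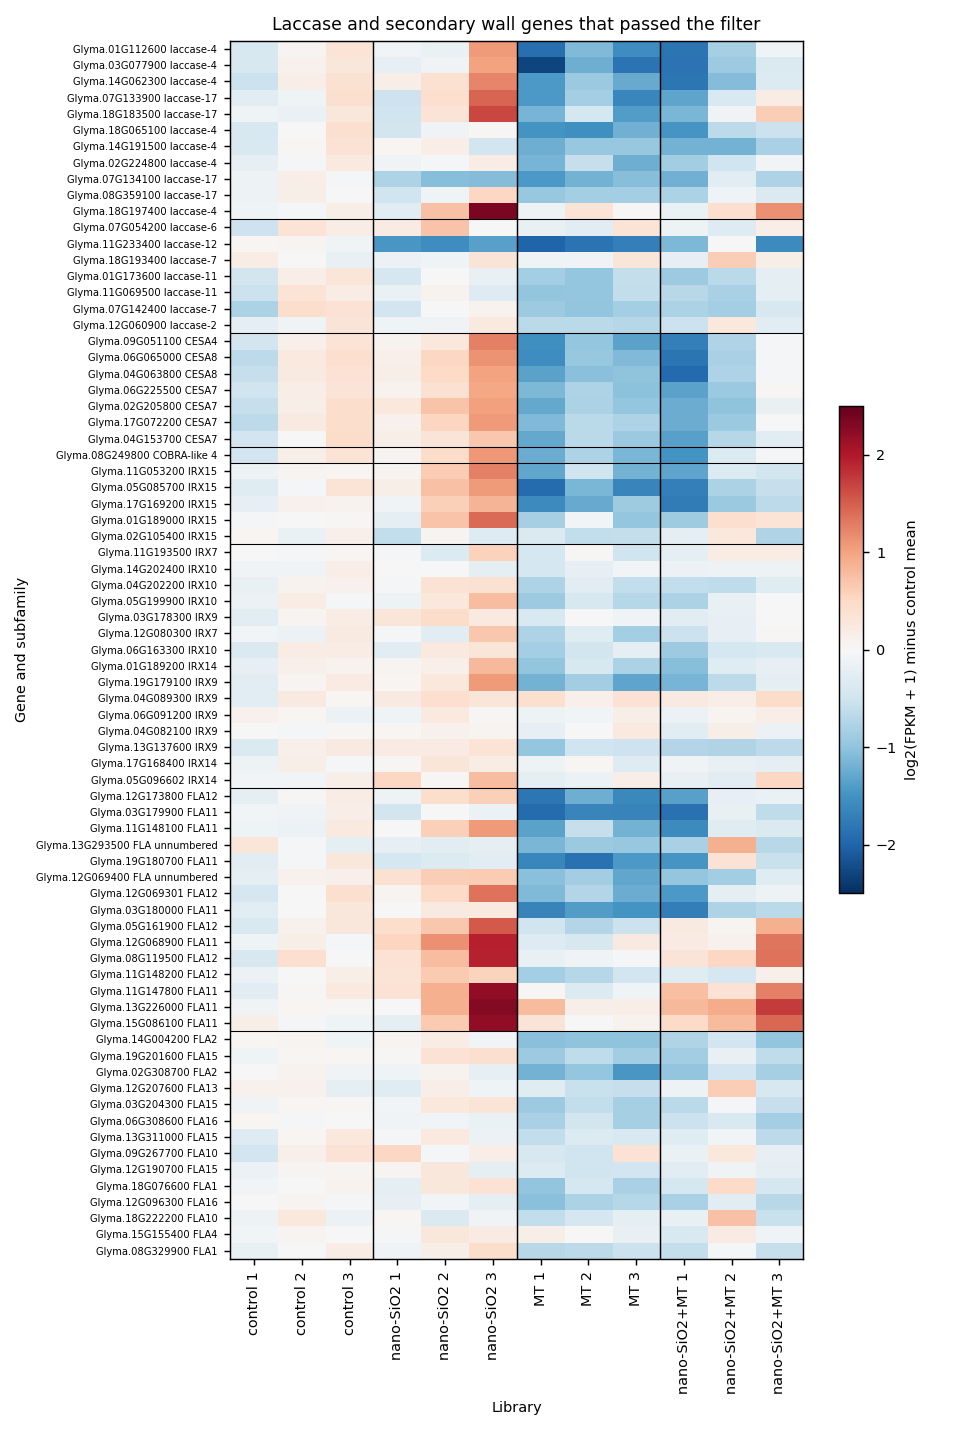
Log2(FPKM + 1) of the 75 tested members in each of the 12 libraries minus the gene's control mean (blue lower, red higher; lines separate groups of libraries and of genes by name). MT columns are mostly blue, with 69 of 75 members below 0 on average, and nano-SiO2 3 is the reddest column, highest of the 12 libraries for 41 members.

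Cellulose synthesis was represented by 7 tested subunits of the secondary wall complex and by COBRA-like 4, the soybean namesake of a COBRA family protein that orients cellulose in secondary walls. The single tested CESA4 gene (Glyma.09G051100, chromosome 9) had 10.6, 16.4 and 19.2 FPKM in control, 15.9, 18.3 and 37.5 with nano-SiO2, 4.51, 7.18 and 5.36 with MT, and 3.902, 8.49 and 14.5 with both sprays. Its mean was 15.4 ± 4.35 FPKM in control and 5.68 ± 1.36 with MT (SD, n = 3). The MT libraries did not overlap control, but the difference missed the threshold (log2 change -1.28 ± 0.39 (SE), adjusted p = 0.106). CESA8 (Glyma.06G065000, chromosome 6) had 7.96, 15.7 and 18.1 FPKM in the control libraries, 14.4, 19.4 and 30.01 in the nano-SiO2 libraries, 3.805, 6.403 and 5.62 in the MT libraries, and 3.02, 7.11 and 12.8 in those of the combined spray. Its paralogue Glyma.04G063800 on chromosome 4 had 6.06, 11.3 and 12.6 FPKM under control conditions, 10.7, 13.97 and 20.2 under nano-SiO2, 3.203, 4.096 and 4.27 under MT, and 1.74, 5.18 and 9.41 under the combination. Both CESA8 genes were low in control 1 and combined spray 1 and highest in nano-SiO2 3, as CESA4 was.

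Among 4 tested CESA7 genes, Glyma.06G225500 was the most abundant, with 5.26, 8.96 and 10.1 FPKM in control, 8.45, 10.4 and 16.2 with nano-SiO2, 3.05, 4.21 and 3.35 with MT, and 2.51, 3.65 and 7.97 with both sprays. Glyma.02G205800 had 3.702, 6.74 and 8.45 FPKM in the control libraries, 7.46, 10.5 and 13.4 in the nano-SiO2 libraries, 1.902, 3.07 and 2.59 in the MT libraries, and 1.97, 2.49 and 5.13 in those of the combined spray. Values of Glyma.17G072200 were 2.82, 6.01 and 7.11 FPKM under control conditions, 5.48, 7.78 and 11.5 under nano-SiO2, 1.79, 2.76 and 2.51 under MT, and 1.55, 2.17 and 4.94 under the combination. In these 3 genes every MT library lay below every control library. The least abundant, Glyma.04G153700, was at 2.17, 3.45 and 4.997 FPKM in control, 3.83, 4.51 and 5.99 with nano-SiO2, 0.817, 1.75 and 1.32 with MT, and 0.711, 1.68 and 2.59 with both sprays, with the same separation. Transcripts of COBRA-like 4 (Glyma.08G249800, chromosome 8) were at 5.24, 8.68 and 10.1 FPKM in the control libraries, 8.13, 10.97 and 17.6 in the nano-SiO2 libraries, 2.72, 4.15 and 2.95 in the MT libraries, and 2.09, 5.86 and 7.57 in those of the combined spray. For all 7 CESA genes and COBRA-like 4 the difference between MT and control was below 0, at -1.28 (CESA4) to -0.85 (Glyma.17G072200) on the log2 scale, and 0 of the 8 passed the threshold (adjusted p = 0.0873 at the lowest). Against the nano-SiO2 group, all 8 were called lower in MT, where 2.41% of tested genes were called lower. Those log2 changes ran from -1.82 (CESA4) to -1.33 (Glyma.04G153700), with adjusted p of 0.0126 to 0.0454. Each of the 8 calls was lost in 2 to 8 of the 12 fits without 1 library. The call of Glyma.02G205800, for example, was lost without nano-SiO2 2 or MT 1 (adjusted p up to 0.0695), and the call of CESA4 was lost without control 2, nano-SiO2 2, nano-SiO2 3, MT 1, MT 2 or MT 3 (adjusted p up to 0.132).

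The IRX genes of xylan synthesis were grouped by name. IRX9, IRX10 and IRX14 are known from Arabidopsis as parts of the machinery that extends the xylan backbone, IRX7 as a glycosyltransferase needed for the end of the chain, and IRX15 and its like as Golgi proteins needed for normal xylan. Of 5 tested IRX15 genes, 2 were called lower with MT than in control and all 5 lay below 0, with a median of -0.997. Of the 15 other tested IRX genes, 1 was called lower, 13 lay below 0, and the median was -0.30. That these subfamilies differ was not tested. Glyma.05G085700 (IRX15-like, chromosome 5) had 5.13, 6.33 and 8.48 FPKM in control, 7.28, 11.5 and 14.8 with nano-SiO2, 0.986, 2.399 and 1.39 with MT, and 1.29, 3.32 and 4.01 with both sprays. All MT libraries were under 5.13 FPKM, the lowest control value (log2 change -1.57 ± 0.31 (SE), adjusted p = 0.0162), but the call was lost without control 2, control 3, MT 1 or MT 3 (adjusted p up to 0.0834). Glyma.17G169200 had 3.35, 4.39 and 4.33 FPKM in the control libraries, 3.69, 6.58 and 7.97 in the nano-SiO2 libraries, 0.667, 1.096 and 1.68 in the MT libraries, and 0.489, 1.64 and 2.18 in those of the combined spray. Its fall with MT (log2 change -1.25 ± 0.29 (SE), adjusted p = 0.0344) was lost without control 1, control 2, control 3, MT 1 or MT 2 (adjusted p up to 0.1495). The most abundant IRX15 gene, Glyma.11G053200, had 5.92, 6.87 and 6.803 FPKM under control conditions, 6.93, 10.7 and 16.999 under nano-SiO2, 2.04, 4.32 and 2.31 under MT, and 2.02, 4.97 and 4.47 under the combination. Its MT libraries did not overlap control, yet the difference missed the threshold (log2 change -0.997 ± 0.31 (SE), adjusted p = 0.1097).

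Glyma.19G179100, an IRX9 gene on chromosome 19, was the other IRX gene called lower with MT. It had 3.07, 4.21 and 4.73 FPKM in control, 4.09, 4.95 and 9.38 with nano-SiO2, 1.196, 1.697 and 0.999 with MT, and 1.22, 2.16 and 3.18 with both sprays. The MT libraries lay below every control library (log2 change -1.12 ± 0.27 (SE), adjusted p = 0.0419), and the call was lost without control 2, control 3, MT 1, MT 2, MT 3 or nano-SiO2+MT 2 (adjusted p up to 0.161). Its namesake Glyma.13G137600 was at 0.891, 1.68 and 1.87 FPKM in the control libraries, 1.82, 1.83 and 2.11 in the nano-SiO2 libraries, 0.241, 0.737 and 0.699 in the MT libraries, and 0.467, 0.4402 and 0.561 in those of the combined spray. There the difference between MT and control was -0.66 (adjusted p = 0.0612), while the combined spray was lower than nano-SiO2 alone (log2 change -0.97 ± 0.18 (SE), adjusted p = 0.0198), a call that was lost without nano-SiO2 1, nano-SiO2 2, nano-SiO2+MT 1 or nano-SiO2+MT 2 (adjusted p up to 0.0861). A further IRX9 gene, Glyma.03G178300, had 3.54, 4.72 and 5.24 FPKM under control conditions, 5.71, 6.46 and 5.47 under nano-SiO2, 3.21, 4.39 and 4.11 under MT, and 3.52, 3.73 and 4.4998 under the combination. Its MT and control libraries overlapped, and the log2 difference was -0.16. Transcripts of IRX14 (Glyma.01G189200) were at 3.48, 4.58 and 4.44 FPKM in the control libraries, 4.36, 4.59 and 8.03 in the nano-SiO2 libraries, 1.59, 2.91 and 1.98 in the MT libraries, and 1.45, 3.19 and 3.47 in those of the combined spray. They lay below control in all MT libraries without a call (adjusted p = 0.149).

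The 4 tested IRX10 genes all lay below 0 in MT against control, with a median of -0.54. Glyma.04G202200 had 6.47, 8.11 and 8.17 FPKM in control, 7.27, 10.04 and 10.1 with nano-SiO2, 3.98, 6.07 and 4.55 with MT, and 4.57, 4.49 and 5.95 with both sprays. Glyma.05G199900 had 5.77, 7.53 and 6.41 FPKM in the control libraries, 5.86, 8.02 and 11.8 in the nano-SiO2 libraries, 3.02, 4.701 and 3.59 in the MT libraries, and 3.35, 5.62 and 6.48 in those of the combined spray. The values of Glyma.06G163300 were 3.68, 5.82 and 5.85 FPKM under control conditions, 3.98, 6.16 and 6.45 under nano-SiO2, 2.32, 3.38 and 4.07 under MT, and 2.23, 3.43 and 3.64 under the combination. Their log2 differences between MT and control were -0.56, -0.68 and -0.52, none of them called (0 of 4 IRX10 genes). The remaining one, Glyma.14G202400, was at 6.87, 6.84 and 8.42 FPKM in control, 7.29, 7.29 and 6.04 with nano-SiO2, 5.15, 6.199 and 6.95 with MT, and 6.56, 6.67 and 6.64 with both sprays. Its group means were 7.38 ± 0.902 FPKM in control and 6.101 ± 0.906 with MT (SD, n = 3). The most abundant IRX gene of all was IRX7 (Glyma.11G193500, chromosome 11), with 15.9, 15.5 and 16.6 FPKM in the control libraries, 15.6, 12.4 and 24.2 in the nano-SiO2 libraries, 11.6, 16.3 and 11.002 in the MT libraries, and 13.3, 18.3 and 18.4 in those of the combined spray. Its MT and control libraries overlapped through MT 2 (log2 change -0.30 ± 0.21 (SE), adjusted p = 0.552). The second tested IRX7 gene, Glyma.12G080300, was at 4.61, 4.299 and 5.83 FPKM under control conditions, 4.67, 3.92 and 8.36 under nano-SiO2, 2.43, 3.78 and 2.27 under MT, and 3.05, 4.12 and 4.996 under the combination. Both IRX7 genes had their highest value in nano-SiO2 3.

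**Figure D3:**
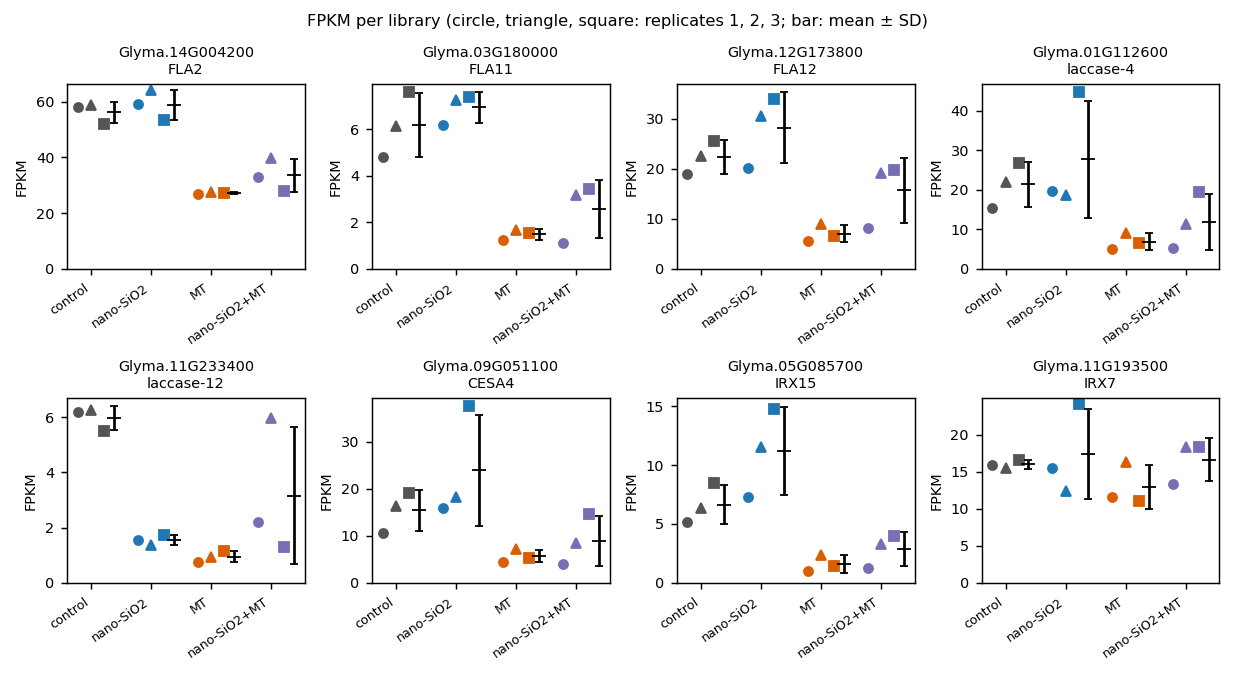
FPKM of 8 members in each library (linear axes from 0; circle, triangle and square mark replicates 1, 2 and 3; black bar, mean ± SD, n = 3 per group). MT libraries lie below control without overlap in all but IRX7, laccase-12 is low in every nano-SiO2 and MT library, and CESA4 and laccase-4 stand out in nano-SiO2 3.

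Laccases were the class with the largest median difference between MT and control among the 3 classes with over 10 tested members, at -0.99 on the log2 scale, with 6 of 18 called lower and 16 below 0. Laccase-4 and laccase-17 are among the enzymes known in Arabidopsis stems for polymerising lignin, and their soybean namesakes held 11 of the 18 tested laccases and 5 of the 6 calls. The most abundant laccase, laccase-4 (Glyma.01G112600, chromosome 1), had 15.4, 21.8 and 26.6 FPKM in control, 19.8, 18.5 and 44.6 with nano-SiO2, 4.93, 9.11 and 6.46 with MT, and 5.16, 11.3 and 19.3 with both sprays. Its mean was 21.3 ± 5.63 FPKM in control, 27.6 ± 14.7 with nano-SiO2, 6.83 ± 2.12 with MT and 11.9 ± 7.09 with both (SD, n = 3). MT lay below control in every library, but the difference missed the threshold (log2 change -1.51 ± 0.41 (SE), adjusted p = 0.0705). Glyma.03G077900, another laccase-4, had 10.9, 16.0005 and 18.3 FPKM in the control libraries, 12.7, 13.8 and 30.8 in the nano-SiO2 libraries, 2.201, 5.78 and 3.37 in the MT libraries, and 3.401, 7.44 and 11.2 in those of the combined spray. It fell with MT (log2 change -1.79 ± 0.40 (SE), adjusted p = 0.03299), a call that was lost without control 2, control 3, MT 1 or MT 3 (adjusted p up to 0.142). The laccase-4 gene Glyma.14G062300 had 8.47, 14.4 and 16.9 FPKM under control conditions, 14.2, 16.9 and 30.9 under nano-SiO2, 4.09, 6.22 and 4.77 under MT, and 2.95, 5.47 and 9.82 under the combination. It was lower in all MT libraries than in control without a call against control (adjusted p = 0.09699).

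Of 7 tested laccase-4 genes, 4 were called lower with MT and 6 lay below 0. Glyma.18G065100 had 2.36, 3.38 and 4.83 FPKM in control, 2.22, 3.13 and 3.52 with nano-SiO2, 0.574, 0.513 and 0.924 with MT, and 0.5902, 1.78 and 2.03 with both sprays. All MT and all combined spray libraries lay below all control libraries, and the fall with MT (log2 change -1.41 ± 0.25 (SE), adjusted p = 0.00839) held in each of the 12 fits without 1 library (adjusted p at most 0.0447). Glyma.14G191500 had 2.28, 3.33 and 4.44 FPKM in the control libraries, 3.39, 3.79 and 2.05 in the nano-SiO2 libraries, 0.838, 1.21 and 1.19 in the MT libraries, and 0.865, 0.877 and 1.43 in those of the combined spray. It was lower with MT (log2 change -1.04 ± 0.21 (SE), adjusted p = 0.0161) and with the combined spray (log2 change -1.06 ± 0.21 (SE), adjusted p = 0.0262) than in control. The former call was lost without control 2, control 3 or MT 1 (adjusted p up to 0.0829), and the latter was lost without control 2, control 3, nano-SiO2+MT 1, nano-SiO2+MT 2 or nano-SiO2+MT 3 (adjusted p up to 0.132). A further laccase-4 called lower with MT, Glyma.02G224800, ranked below the 25 members of smallest F test p and is only counted. The neighbouring laccase-17 genes Glyma.07G133900 and Glyma.07G134100 on chromosome 7 had unlike levels under nano-SiO2. Glyma.07G133900 had 2.84, 3.32 and 5.14 FPKM under control conditions, 2.28, 5.28 and 11.9 under nano-SiO2, 0.736, 1.596 and 0.508 under MT, and 0.865, 2.6002 and 4.34 under the combination. Glyma.07G134100 had 2.38, 3.11 and 2.54 FPKM in control, 1.16, 0.743 and 0.741 with nano-SiO2, 0.359, 0.624 and 0.754 with MT, and 0.586, 2.03 and 1.15 with both sprays. The former was highest in nano-SiO2 3, while the latter was lower in every nano-SiO2 library than in every control library, though without a call (log2 change -0.97 ± 0.21 (SE), adjusted p = 0.0743). With MT the latter fell (log2 change -1.22 ± 0.21 (SE), adjusted p = 0.00609), and that call held in each of the 12 fits without 1 library (adjusted p at most 0.0413). Reads shared between these neighbours cannot be told apart here.

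Laccase-12 (Glyma.11G233400, chromosome 11) was the single member with a called difference under nano-SiO2 alone. It had 6.17, 6.26 and 5.49 FPKM in control, 1.55, 1.37 and 1.73 with nano-SiO2, 0.746, 0.947 and 1.13 with MT, and 2.22, 5.96 and 1.3002 with both sprays. Every nano-SiO2 and every MT library lay below every control library, while combined spray 2 reached the control range and combined spray 1 and 3 did not. Means were 5.98 ± 0.422 FPKM in control, 1.55 ± 0.178 with nano-SiO2, 0.942 ± 0.194 with MT and 3.16 ± 2.47 with both sprays (SD, n = 3). The fall with nano-SiO2 (log2 change -1.45 ± 0.29 (SE), adjusted p = 0.0492) was lost without control 1, control 2, control 3, nano-SiO2 1, nano-SiO2 2, nano-SiO2 3, MT 1, MT 2, MT 3 or nano-SiO2+MT 1 (adjusted p up to 0.225). The fall with MT (log2 change -1.85 ± 0.29 (SE), adjusted p = 0.00398) held in each of the 12 fits without 1 library (adjusted p at most 0.02604). In the comparison of the combined spray with control the difference was -0.90 (adjusted p = 0.177). The interaction, defined as the difference with MT in the presence of nano-SiO2 minus that in its absence, was 2.40 ± 0.41 (SE, adjusted p = 0.0172), and 0.12% of tested genes had a called interaction above 0. This call was lost without control 1, control 2, nano-SiO2 1, nano-SiO2 2, MT 1 or MT 2 (adjusted p up to 0.0659). Without combined spray 2 the interaction was smaller, at 1.94, and called (adjusted p = 0.00141). The laccase-17 gene Glyma.07G134100 had an interaction of 1.44 that missed the threshold (adjusted p = 0.0519). Laccases of other names, laccase-2, laccase-6, laccase-7 and laccase-11, held 6 tested genes, of which 0 were called against control in any spray group.

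The FLA class held the most tested members, 29, of which 12 were called lower with MT and 27 lay below 0, with a median of -0.70. FLA11 and FLA12 are known in Arabidopsis stems from cells that build secondary walls. Among the 15 tested FLA11, FLA12 and unnumbered FLA genes, 6 were called lower with MT and 13 lay below 0. FLA12 (Glyma.12G173800, chromosome 12) had 18.9, 22.7 and 25.6 FPKM in control, 20.2, 30.6 and 33.9 with nano-SiO2, 5.61, 8.93 and 6.58 with MT, and 8.09, 19.2 and 19.8 with both sprays. No MT library reached the lowest control value, and the fall (log2 change -1.55 ± 0.29 (SE), adjusted p = 0.0124) was lost without control 2, control 3 or MT 1 (adjusted p up to 0.0678). Glyma.03G179900 and Glyma.03G180000 are neighbouring FLA11 genes on chromosome 3. Glyma.03G179900 had 17.4, 17.3 and 20.6 FPKM in the control libraries, 13.1, 18.3 and 16.6 in the nano-SiO2 libraries, 4.11, 5.21 and 5.06 in the MT libraries, and 4.36, 16.1 and 11.5 in those of the combined spray. Glyma.03G180000 had 4.81, 6.16 and 7.59 FPKM under control conditions, 6.18, 7.26 and 7.39 under nano-SiO2, 1.23, 1.68 and 1.52 under MT, and 1.13, 3.16 and 3.42 under the combination. MT lay below control in both without overlap. The call of Glyma.03G179900 (log2 change -1.75 ± 0.32 (SE), adjusted p = 0.00978) was lost without control 3 or MT 1 (adjusted p up to 0.0536). In Glyma.03G180000 the fall with MT (log2 change -1.52 ± 0.24 (SE), adjusted p = 0.003801) held in each of the 12 fits without 1 library (adjusted p at most 0.02596). That gene was also lower with both sprays than in control (log2 change -1.06 ± 0.24 (SE), adjusted p = 0.0483), a call that held in 1 of the 12 fits without 1 library and reached an adjusted p of 0.208.

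FLA11 Glyma.19G180700 on chromosome 19 had 6.91, 8.403 and 10.7 FPKM in control, 6.07, 6.53 and 6.81 with nano-SiO2, 2.09, 1.63 and 2.53 with MT, and 2.44, 11.2 and 5.44 with both sprays. Combined spray 2 stood above every other library, as it did for the unnumbered FLA Glyma.13G293500, which had 11.6, 8.78 and 7.53 FPKM in the control libraries, 7.84, 7.39 and 7.69 in the nano-SiO2 libraries, 3.57, 4.34 and 4.25 in the MT libraries, and 4.798, 17.9 and 5.25 in those of the combined spray. Against control, Glyma.19G180700 fell with MT (log2 change -1.64 ± 0.34 (SE), adjusted p = 0.0205), and the call was lost without control 2, control 3, MT 1 or MT 2 (adjusted p up to 0.0973). Glyma.13G293500 missed the threshold (adjusted p = 0.142). Glyma.12G069400, an unnumbered FLA in the run of 10 on chromosome 12, had 4.92, 6.51 and 6.64 FPKM under control conditions, 8.04, 9.68 and 9.81 under nano-SiO2, 2.405, 2.81 and 1.85 under MT, and 2.58, 2.84 and 4.63 under the combination. Its nano-SiO2 libraries lay above all control libraries and its MT and combined spray libraries below them. The fall with MT (log2 change -1.07 ± 0.18 (SE), adjusted p = 0.00616) held in each of the 12 fits without 1 library (adjusted p at most 0.0403). It was also lower with the combined spray than with nano-SiO2 alone (log2 change -1.25 ± 0.18 (SE), adjusted p = 0.00595), and this call held in each of the 12 fits without 1 library (adjusted p at most 0.0348). Its neighbour Glyma.12G069301, an FLA12, had 3.66, 5.27 and 7.15 FPKM in control, 5.54, 7.65 and 14.9 with nano-SiO2, 1.87, 2.75 and 1.63 with MT, and 1.31, 4.32 and 4.66 with both sprays. Glyma.12G068900, an FLA11 of the same run, had 1.25, 1.66 and 1.36 FPKM in the control libraries, 2.49, 4.35 and 8.303 in the nano-SiO2 libraries, 0.944, 0.819 and 1.83 in the MT libraries, and 1.78, 1.604 and 5.14 in those of the combined spray. Both peaked in nano-SiO2 3, and neither was called against control. On chromosome 11, Glyma.11G148100 (FLA11) had 11.6, 11.2 and 14.9 FPKM under control conditions, 12.6, 19.2 and 27.1 under nano-SiO2, 4.34, 8.08 and 4.93 under MT, and 3.45, 9.86 and 9.43 under the combination. The adjacent FLA12 gene Glyma.11G148200 had 1.72, 2.03 and 2.36 FPKM in control, 2.84, 3.74 and 3.48 with nano-SiO2, 0.671, 0.846 and 1.16 with MT, and 1.44, 1.25 and 2.297 with both sprays. The latter fell with MT (log2 change -0.68 ± 0.17 (SE), adjusted p = 0.0412), a call that was lost without control 1, control 2, control 3, MT 1, MT 2 or nano-SiO2+MT 1 (adjusted p up to 0.166), and the former had a difference of -1.03 without a call. FLA12 Glyma.05G161900 had 1.64, 2.74 and 3.198 FPKM in the control libraries, 3.73, 4.53 and 8.99 in the nano-SiO2 libraries, 1.44, 1.098 and 1.397 in the MT libraries, and 3.04, 2.65 and 5.45 in those of the combined spray. It was higher in nano-SiO2 than in control in every library, without a call (log2 difference 0.88, adjusted p = 0.2804).

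Of the 14 tested FLA genes with other numbers, 6 were called lower with MT and 14 lay below 0. FLA2 (Glyma.14G004200, chromosome 14) was the most abundant member of the whole set, with 58.02, 58.7 and 51.9 FPKM in control, 59.03, 64.3 and 53.6 with nano-SiO2, 26.8, 27.5 and 27.4 with MT, and 33.1, 39.8 and 27.9 with both sprays. Its mean fell from 56.2 ± 3.75 FPKM in control to 27.2 ± 0.405 with MT (SD, n = 3; log2 change -1.02 ± 0.13 (SE), adjusted p = 0.00116), a call that held in each of the 12 fits without 1 library (adjusted p at most 0.0112). It also fell with both sprays (log2 change -0.74 ± 0.13 (SE), adjusted p = 0.0184), and that call was lost without control 1, control 2, control 3, nano-SiO2+MT 1 or nano-SiO2+MT 3 (adjusted p up to 0.108). The other FLA2 gene, Glyma.02G308700, had 14.2, 15.4 and 13.4 FPKM in the control libraries, 13.1, 15.4 and 12.2 in the nano-SiO2 libraries, 5.77, 6.81 and 4.57 in the MT libraries, and 6.71, 9.97 and 7.57 in those of the combined spray. All MT and combined spray libraries lay below all control libraries in both FLA2 genes. For Glyma.02G308700 the fall with MT (log2 change -1.20 ± 0.16 (SE), adjusted p = 0.00114) held in each of the 12 fits without 1 library (adjusted p at most 0.0109), and the fall with both sprays (log2 change -0.77 ± 0.16 (SE), adjusted p = 0.0342) was lost without control 1, control 2, control 3, MT 1, nano-SiO2+MT 1 or nano-SiO2+MT 3 (adjusted p up to 0.168).

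FLA15 Glyma.19G201600 had 14.7, 16.5 and 16.6 FPKM in control, 16.1, 20.5 and 21.2 with nano-SiO2, 8.002, 9.92 and 8.27 with MT, and 8.26, 13.8 and 9.83 with both sprays. FLA15 Glyma.03G204300 had 9.65, 10.8 and 10.5 FPKM in the control libraries, 9.74, 12.5 and 13.2 in the nano-SiO2 libraries, 5.04, 6.397 and 5.38 in the MT libraries, and 6.05, 9.96 and 6.59 in those of the combined spray. Both fell with MT, by log2 changes of -0.80 (adjusted p = 0.0211) and -0.78 (adjusted p = 0.0237), and both calls were lost without control 2, control 3, MT 1 or MT 3 (adjusted p up to 0.0995 and 0.109). Another gene of this name, Glyma.13G311000, had 4.34, 5.94 and 7.07 FPKM under control conditions, 5.48, 6.93 and 5.03 under nano-SiO2, 3.36, 4.31 and 4.12 under MT, and 4.41, 5.41 and 3.24 under the combination. It was not called (log2 difference -0.45). FLA16 Glyma.06G308600 had 8.85, 8.301 and 8.398 FPKM in control, 7.91, 8.11 and 7.45 with nano-SiO2, 4.39, 5.89 and 4.39 with MT, and 5.58, 6.28 and 4.29 with both sprays. FLA16 Glyma.12G096300 had 2.77, 2.99 and 2.71 FPKM in the control libraries, 2.32, 2.63 and 2.23 in the nano-SiO2 libraries, 0.861, 1.22 and 1.33 in the MT libraries, and 1.17, 2.16 and 1.36 in those of the combined spray. Every MT library lay below control in both FLA16 genes. The call of Glyma.06G308600 (log2 change -0.70 ± 0.14 (SE), adjusted p = 0.0149) was lost without control 2, control 3 or MT 1 (adjusted p up to 0.0792), and that of Glyma.12G096300 (log2 change -0.85 ± 0.15 (SE), adjusted p = 0.00816) held in each of the 12 fits without 1 library (adjusted p at most 0.0489). FLA13 (Glyma.12G207600) was at 10.7, 10.7 and 8.19 FPKM under control conditions, 7.796, 11.1 and 8.98 under nano-SiO2, 7.79, 6.31 and 6.19 under MT, and 8.83, 15.5 and 7.21 under the combination. It was not called, and its highest value came from combined spray 2. FLA1, FLA4 and FLA10 held 5 tested genes, 0 of them called against control.

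Over all members, the 21 calls of MT against control rested on few libraries. The count was 9 without control 2, 8 without control 3 and 8 without MT 1, and between 15 and 24 without any other library. Of the 20 called members with values above, 8 kept the call in every fit without 1 library. They were laccase-4 Glyma.18G065100, laccase-17 Glyma.07G134100, laccase-12, FLA11 Glyma.03G180000, the unnumbered FLA Glyma.12G069400, both FLA2 genes and FLA16 Glyma.12G096300. The direction was steadier than the calls: the member median stayed between -0.89 and -0.72 over the fits without 1 library.

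With both sprays, 4 members were called lower than control and 0 higher, where 0.637% of tested genes were called lower. They were FLA11 Glyma.03G180000, laccase-4 Glyma.14G191500 and both FLA2 genes. The member median was -0.52 beside -0.05 for all tested genes, and it was -0.25 without combined spray 1. Of the 75 members 62 lay below 0, as did 17265 of 28260 tested genes. In 20 members, all combined spray libraries lay below all control libraries (12.3% of tested genes). The combined libraries were uneven: combined spray 1 was the lowest of its group for 55 of 75 members, against 38.03% of tested genes. Control 1 and nano-SiO2 1 were also the lowest of their groups for 55 members (62.8% and 38.85% of tested genes). MT 1 was the lowest of its group for 46 (40.7%). The count of calls was 0 without control 2, control 3 or combined spray 1, 1 without combined spray 3, 2 without MT 1, and 8 without combined spray 2. Compared with MT alone, the combined spray had 0 members called (0.294% of tested genes called in either direction), and 3 called without combined spray 1. At an unadjusted limma p under 0.05 there were 15 members, and 1296 of 28260 tested genes. The member median of that difference was 0.34 (0.53 without combined spray 1) beside 0.00 for all tested genes, and 13 members had all combined libraries above all MT libraries (4.02% of tested genes). Whether the difference from control under MT and that under the combination differ was read from this direct comparison, and it passed for 0 members.

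Added to nano-SiO2, MT went with lower levels as well. Between the combined spray and nano-SiO2 alone, 13 members were called lower and 0 higher, where 1.22% of tested genes were called lower. The median was -0.57 for members and -0.15 for all tested genes, a gap of -0.42 that was -0.28 without combined spray 1. The called members comprised 6 FLA, 4 IRX, 2 laccase-4 genes and CESA7 Glyma.02G205800, and the call of Glyma.12G069400 alone held in every fit without 1 library. The count was 1 without nano-SiO2 2 or combined spray 1, 4 without nano-SiO2 3, 6 to 8 without control 2, control 3, nano-SiO2 1, MT 1 or combined spray 2, and 18 without combined spray 3. Besides laccase-12, no member had a called interaction, and the median of the interaction was -0.01 for members, or -0.13 to 0.20 without 1 library, and -0.10 for all tested genes. The difference with MT was -1.28 without nano-SiO2 and -1.37 with it for CESA4. For FLA11 Glyma.19G180700 these values were -1.64 and -0.20, with the interaction not called (adjusted p = 0.357).

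**Figure D4:**
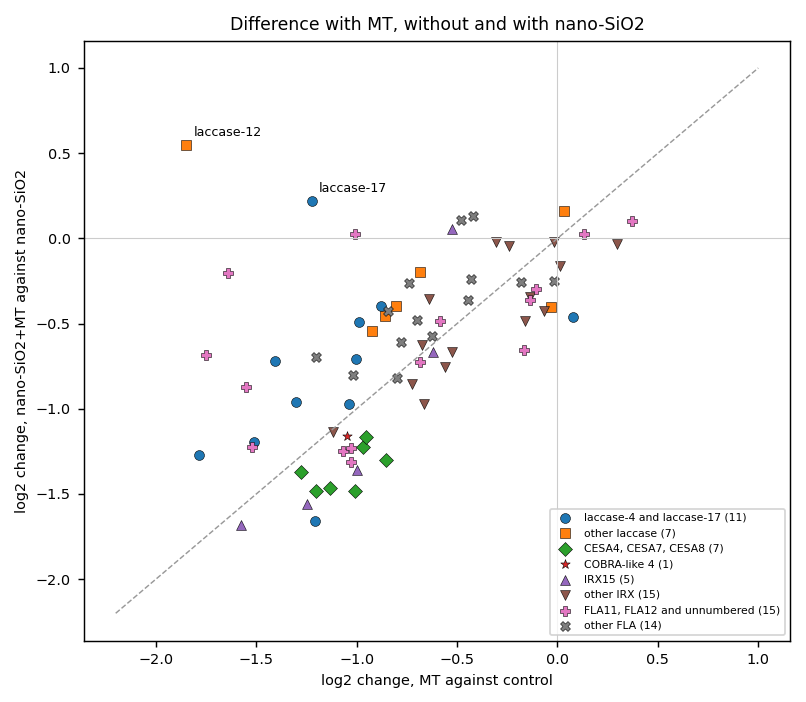
Log2 difference of MT from control (x axis) against that of nano-SiO2+MT from nano-SiO2 (y axis) for the 75 tested members; symbols mark groups by name, and the dashed line marks equal differences. The axes share no library; most points lie below 0 on both, and laccase-12, at -1.85 and 0.55, is farthest from the line.

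MT leaves also had lower levels than nano-SiO2 leaves. In MT against nano-SiO2, 37 of 75 members were called lower and 0 higher, where 2.41% of tested genes were called lower, and the member median was -0.95 beside -0.14 for all tested genes, a gap of -0.81. All 3 MT libraries lay below all 3 nano-SiO2 libraries for 55 members (20.7% of tested genes). The count was 9 without MT 1, 12 without nano-SiO2 2, 15 without nano-SiO2 3, 17 without MT 3, 19 without MT 2 and 22 without control 2, and it was 21 without nano-SiO2 3 and combined spray 3 together, an alternative chosen after seeing the data. Calls of 9 members with values above held in every fit without 1 library: IRX15-like Glyma.05G085700 (-2.22, adjusted p = 0.0034004), IRX9 Glyma.19G179100 (-1.58, adjusted p = 0.00963), FLA12 Glyma.12G173800 (-1.85, adjusted p = 0.00681), FLA11 Glyma.03G180000, FLA12 Glyma.11G148200, the unnumbered FLA Glyma.12G069400, both FLA2 genes and FLA15 Glyma.19G201600.

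Nano-SiO2 alone gave 1 called member, laccase-12, where 0.103% of tested genes were called lower, and 0 called higher (0.389%). The member median was 0.24 beside 0.10 for all tested genes, and 57 of 75 lay above 0, as did 19506 of 28260 tested genes. All nano-SiO2 libraries lay above all control libraries for 8 members (12.2% of tested genes) and below them for 5 (3.78%). All combined spray libraries lay below all nano-SiO2 libraries for 33 members (19.5% of tested genes). Without nano-SiO2 3, the gap between the member median and that of all tested genes was 0.01, against 0.14 with it, and without control 1 it was 0.08. That library was the highest of all 12 for 41 of 75 members, against 16.2% of tested genes. On the log2 scale it exceeded the mean of nano-SiO2 1 and 2 by a median of 0.34 in members and by -0.05 in all tested genes, and by more than 1 in 13 members (17.3%) against 1.38% of tested genes. The gap had a median of 0.95 in laccase-4 and laccase-17 genes, 0.76 in FLA11, FLA12 and unnumbered FLA, 0.73 in CESA genes and 0.63 in IRX15, but 0.22 in other IRX, 0.15 in other laccases and -0.07 in other FLA. These name groups were mixed. Within other IRX the median ran from -0.01 (IRX9 with the IRX9H genes counted in) to 0.79 (IRX7), which is above IRX15. The IRX9H genes Glyma.04G082100, Glyma.04G089300 and Glyma.06G091200 had gaps of -0.0065, -0.012 and -0.038. Those described as IRX9, Glyma.03G178300, Glyma.13G137600 and Glyma.19G179100, had -0.13, 0.14 and 0.92. It was 0.93 in FLA11 and 0.97 in FLA12 but 0.08 in the unnumbered FLA. These medians describe 1 library, with no test.

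**Figure D5:**
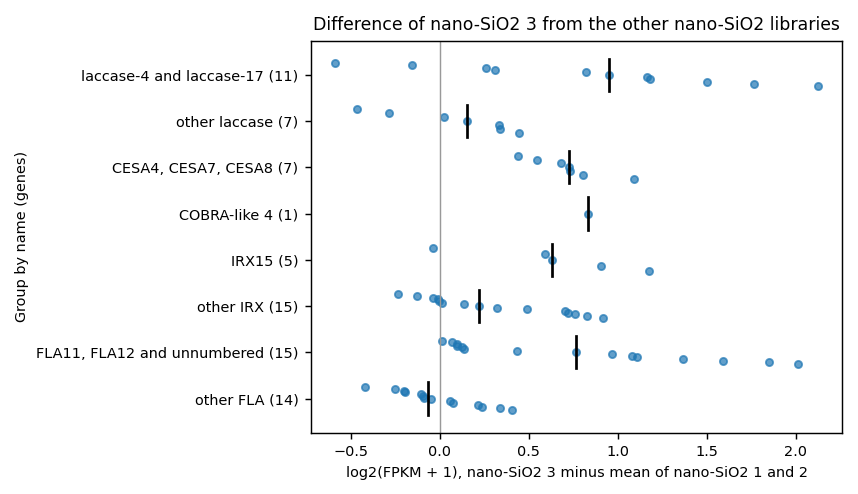
Log2(FPKM + 1) in nano-SiO2 3 minus the mean of nano-SiO2 1 and 2 for each tested member (points) by name group, with the group median (black line). Laccase-4 and laccase-17, FLA11 and FLA12, CESA and IRX15 genes lie mostly right of 0, and other FLA genes lie around 0.

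Some members of low level in control had their highest value in nano-SiO2 3 and the next highest in combined spray 3. They are named here after their values were seen. FLA11 Glyma.13G226000 had 0.03301, 0.134 and 0.127 FPKM in control, 0.0831, 1.04 and 4.35 with nano-SiO2, 0.909, 0.211 and 0.231 with MT, and 0.915, 1.09 and 2.67 with both sprays. FLA11 Glyma.15G086100 had 0.354, 0.207 and 0.141 FPKM in the control libraries, 0.0342, 0.927 and 4.697 in the nano-SiO2 libraries, 0.539, 0.218 and 0.305 in the MT libraries, and 0.706, 1.13 and 2.32 in those of the combined spray. Laccase-4 Glyma.18G197400 had 0.251, 0.3104 and 0.505 FPKM under control conditions, 0.105, 1.24 and 5.87 under nano-SiO2, 0.231, 0.719 and 0.374 under MT, and 0.212, 0.809 and 1.97 under the combination. In these 3 genes nano-SiO2 3 stood apart from nano-SiO2 1 and 2. FLA12 Glyma.08G119500, with 8.10 FPKM in nano-SiO2 3 and 5.08 in combined spray 3, and FLA11 Glyma.11G147800, with 6.43 and 2.85, had the same order. None of these 5 was called in any comparison.

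Markers of other tissues were read beside these results. The 12 procambium and vascular patterning genes, such as ATHB-8 and REVOLUTA, summed to 17.9, 25.02 and 25.2 FPKM in control, 22.3, 30.4 and 39.9 with nano-SiO2, 18.4, 22.3 and 23.9 with MT and 18.8, 21.8 and 28.5 with both sprays. Nano-SiO2 3 was their highest library too, and MT overlapped control, with 0 of 9 tested genes called and a median of -0.18. The 9 phloem genes summed to 45.2 to 62.2 FPKM in control, 50.4 to 59.1 with nano-SiO2, 44.5 to 59.5 with MT and 44.6 to 60.02 with both sprays, with 0 of 7 tested called and a median of -0.02 for MT against control. Of 28 tested mesophyll genes, 2 were called lower with MT (median 0.02) and 1 with nano-SiO2 (median -0.32). The gene of smallest adjusted p in both was an LHCII type 1 chlorophyll a-b binding protein (Glyma.16G165200, log2 change -1.33 ± 0.23 (SE), adjusted p = 0.00766 with MT, a call that held in each of the 12 fits without 1 library (adjusted p at most 0.0382)). Its call under nano-SiO2 was lost in 10 of the 12 fits without 1 library (adjusted p up to 0.235). The 6 genes for dividing cells summed to 18.7 to 23.1 FPKM in control and 18.9 to 25.7 with MT. Only 1 of these 6 was tested, and it was not called. No gene of these lists was listed at 0 in every library. The part of vascular and other cell types in the levels of the secondary wall genes was not tested.

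The epidermis list, 3-ketoacyl-CoA synthases of wax and cutin synthesis and ECERIFERUM genes, moved with MT: it summed to 231 to 293 FPKM in control and 157 to 177 with MT, without overlap. Of its 19 tested genes, 5 were called lower and 0 higher against control (median -0.53), with 3 called without control 2, control 3 or MT 2. 3-ketoacyl-CoA synthase 10 (Glyma.04G057800) fell in MT (log2 change -0.85 ± 0.12 (SE), adjusted p = 0.00202), a call that held in each of the 12 fits without 1 library (adjusted p at most 0.0191). Its namesake Glyma.06G058500 fell with both sprays (log2 change -0.61 ± 0.12 (SE), adjusted p = 0.0285), and that call was lost without control 2, control 3, nano-SiO2+MT 1 or nano-SiO2+MT 3 (adjusted p up to 0.163). 3-ketoacyl-CoA synthase 6 (Glyma.10G274400) was lower in MT than in nano-SiO2 (log2 change -0.90 ± 0.15 (SE), adjusted p = 0.00709), which held in each of the 12 fits without 1 library (adjusted p at most 0.03197). The part of epidermal cells in the results above was not tested.

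Other genes of wall building were lower with MT in part. Of 55 tested monolignol synthesis genes, which make the units that laccases couple, 5 were called lower and 0 higher with MT against control, with a median of -0.27, and the count was 1 without control 2, control 3, MT 1 or MT 2 and 8 without nano-SiO2 3. Phenylalanine ammonia-lyase 2 (Glyma.10G209800), which opens the pathway, had 3.46, 4.03 and 3.97 FPKM in control, 3.22, 3.08 and 3.41 with nano-SiO2, 1.54, 1.72 and 1.66 with MT, and 1.62, 2.58 and 1.96 with both sprays. MT and combined spray libraries were all below control. The fall with MT (log2 change -0.87 ± 0.13 (SE), adjusted p = 0.00271) held in each of the 12 fits without 1 library (adjusted p at most 0.0221), and that with both (log2 change -0.67 ± 0.13 (SE), adjusted p = 0.0243) was lost without control 2, control 3, nano-SiO2+MT 1 or nano-SiO2+MT 3 (adjusted p up to 0.12995). A gene like caffeic acid 3-O-methyltransferase (Glyma.04G227700) was lower in MT than in nano-SiO2 (log2 change -1.63 ± 0.25 (SE), adjusted p = 0.00614), and this call held in each of the 12 fits without 1 library (adjusted p at most 0.0365). 4-coumarate-CoA ligase 2 (Glyma.01G232400) was lower in the combined spray than in nano-SiO2 (log2 change -0.80 ± 0.13 (SE), adjusted p = 0.00933), which was lost without nano-SiO2+MT 1 (adjusted p up to 0.05797).

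Of 13 tested xylan synthesis genes outside the IRX names, 2 were called lower with MT against control (median -0.64) and 7 against nano-SiO2, and the counts were 0 without control 2, control 3 or any MT library and 0 without nano-SiO2 2, nano-SiO2 3, MT 1 or MT 3, respectively. A xylan glucuronosyltransferase (Glyma.14G082500), which adds glucuronic acid side chains, fell against control (log2 change -0.76 ± 0.17 (SE), adjusted p = 0.0284), and this call was lost without control 2, control 3, MT 1, MT 2 or MT 3 (adjusted p up to 0.136). Glucuronoxylan 4-O-methyltransferase 1 (Glyma.04G255800) was lower than in nano-SiO2 (log2 change -1.54 ± 0.32 (SE), adjusted p = 0.0259), a call that was lost without nano-SiO2 2, nano-SiO2 3, MT 1 or MT 3 (adjusted p up to 0.117). Of 11 tested primary wall cellulose synthases, 3 were called lower against control (median -0.62; 0 without control 2, control 3 or MT 1 and 8 without control 1) and 7 against nano-SiO2 (0 without nano-SiO2 2 or MT 2). CESA2 (Glyma.02G080900) fell with MT against control (log2 change -0.99 ± 0.18 (SE), adjusted p = 0.00951), and this call was lost without control 2, control 3 or MT 1 (adjusted p up to 0.0606). Against nano-SiO2 its log2 change was -0.96, a call that was lost without nano-SiO2 2, MT 1 or MT 2 (adjusted p up to 0.0823). Another CESA2 gene (Glyma.16G165900) was lower in the combined spray than in nano-SiO2 (log2 change -1.32 ± 0.22 (SE), adjusted p = 0.0133), which was lost without nano-SiO2 2, nano-SiO2+MT 1 or nano-SiO2+MT 2 (adjusted p up to 0.0725).

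Among 13 tested regulators of secondary walls, searched as NAC and MYB transcription factors and KNAT7, 1 was called lower with MT against control and 10 lay below 0 (median -0.62). It was MYB46 (Glyma.11G133700), a master switch in Arabidopsis, with 1.24, 2.04 and 1.89 FPKM in control, 1.14, 0.558 and 0.796 with nano-SiO2, 0.706, 0.437 and 0.177 with MT, and 0.588, 0.969 and 0.756 with both sprays. Its fall with MT (log2 change -0.92 ± 0.18 (SE), adjusted p = 0.0151) was lost without control 2, control 3, MT 2 or MT 3 (adjusted p up to 0.0887). NAC domain-containing protein 73 (Glyma.06G288500) was lower than under nano-SiO2 both with MT (log2 change -1.12 ± 0.24 (SE), adjusted p = 0.0269) and with the combined spray (log2 change -1.19 ± 0.24 (SE), adjusted p = 0.02998). The former call was lost without nano-SiO2 2, nano-SiO2 3, MT 1 or MT 2 (adjusted p up to 0.126), and the latter was lost without control 2, nano-SiO2 1, nano-SiO2 2, nano-SiO2 3, nano-SiO2+MT 1 or nano-SiO2+MT 2 (adjusted p up to 0.1397). No gene of any of the 9 lists was called higher in any comparison (0 genes).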

How the data were processed

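Leaf mRNA of 12 libraries was analysed, 3 in each of 4 groups. Oligo(dT) beads were used to enrich mRNA, which was fragmented and amplified by PCR, per the labels' protocols. Per the file headers, the authors deposited FPKM for each gene in each library. Columns of a p-value and of a q-value in the deposited table name no comparison and were not used. DESeq2 1.34.0 and R 4.1.2 are named in the submitters' processing notes. The sources used here name no aligner, quantifier or strand setting. Identifiers, of the annotation Wm82.a4.v1 with its suffix left out, hold the chromosome number (Glyma.01G112600 lies on chromosome 1). None matched the RefSeq table (0 identifiers), and no sequences are given.

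Values were fitted as log2(FPKM + 1) with limma 3.58.1 in R 4.3.3 (lmFit, contrasts, eBayes with trend and robust settings, two-sided, 1 mean per group). Figures were drawn with matplotlib. The test was limited to the 28260 genes that reached 1 FPKM in 3 or more libraries, with Benjamini-Hochberg adjustment over all of them in each of 7 contrasts and the F test. The workflow was tested on simulated data. Depth is not stated, but the spacing of low FPKM values gave relative depths of 0.848 to 1.27, and the counting error of single values is unknown.

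The members, the pathway and cell type lists and the tests were chosen with earlier results of these data known. Members named with values were those called in any test (of these the 25 of smallest F test p), the most abundant tested member of each class, and those with a group mean of at least 5 FPKM, 48 in all. Of each list, the called gene of smallest adjusted p in each contrast was named. Alternatives were a pseudocount of 0.1, no filter, median-ratio scaling, quantile normalization, a replicate block, limma without trend and robust settings, fits of only the 2 groups compared, and fits without each library. The fit without nano-SiO2 3 and combined spray 3 together, and all alternatives for the lists, were chosen after seeing the data.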

Additional observations from a re-analysis of the deposited data

Results flagged for a closer look

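Laccase-12 (Glyma.11G233400) had a difference with MT that was -1.85 on the log2 scale without nano-SiO2 and 0.55 with it. The test of the difference between these values, the interaction, gave 2.40 (limma adjusted p = 0.0172). It was the single member with a called interaction. The call was lost without control 1, control 2, nano-SiO2 1, nano-SiO2 2, MT 1 or MT 2 (adjusted p up to 0.0659), and the value was 1.94 without combined spray 2, the library in which laccase-12 reached the control range. The difference of 0.55 between the combined spray and nano-SiO2 was not called. Combined spray 3 (1.30 FPKM) lay below every nano-SiO2 library (1.37 to 1.73 FPKM).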

How the results depend on the processing

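Members called in MT against control numbered 21, or 38 with the replicate block and 34 with only both groups in the fit. Without a filter 19 of 147 members were called lower, and 16 of these were among the 21. The member median was then -0.20 beside -0.02 for all genes in that fit, with 108 of 147 members below 0. For the combined spray against control the count was 4, or 13 with the replicate block and 2 in the fit of 2 groups. For the combined spray against nano-SiO2 it was 13, or 3 without a filter, 7 with median-ratio scaling or quantile normalization, 31 with the replicate block and 2 in the fit of 2 groups. For MT against nano-SiO2 it was 37, or 33 in the fit of 2 groups, 19 without a filter and 21 without nano-SiO2 3 and combined spray 3 together. The single call of nano-SiO2 against control was lost (0) with a pseudocount of 0.1, without a filter, with median-ratio scaling, with the replicate block and without trend and robust settings, and 2 were called in the fit of 2 groups. Quantile normalization also lost that call, of laccase-12, and called 1 other member. The interaction had 2 calls with median-ratio scaling, quantile normalization, or no trend and robust settings. The F test called 27, or 45 with the replicate block. Without 1 library the counts ran from 0 to 2 (nano-SiO2 against control), 8 to 24 (MT against control), 0 to 8 (combined against control), 1 to 18 (combined against nano-SiO2), 0 to 3 (combined against MT), 9 to 40 (MT against nano-SiO2), 0 to 4 (interaction) and 11 to 36 (F test). The causes of these differences were not tested. Same-numbered libraries did not deviate together throughout: 9 of 18 correlations were over 0.1 (range -0.34 to 0.53), and 7 of 18 were best with their own number, so the numbers were not taken to pair the libraries. For MT and the combined spray, however, all 3 correlations were over 0.1 (0.14, 0.38 and 0.36), each best with its own number, and that comparison had 0 calls with and without the block. Replicate 1 had the lowest summed level of the members in all 4 groups. Scaling moved the all-gene median of nano-SiO2 against control from 0.10 to 0.00, that of the combined spray against nano-SiO2 from -0.15 to 0.00 and that of MT against nano-SiO2 from -0.14 to 0.00, and members below 0 in nano-SiO2 against control from 18 to 27. In MT against control 66 of 75 members were below 0 after scaling. No named member with a call in either fit changed direction under any alternative run (0 of them).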
